A study of Homo sapiens with 20 samples.

Results

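Transcripts of 10 Wnt pathway genes were measured in breast epithelial cells that had received a synthetic mimic of miR-4728-3p or of miR-1, each against its own control. The genes are the secreted Wnt antagonists SFRP1, DKK1 and DKK3, the ligand WNT5A, the Frizzled receptors FZD2, FZD4, FZD6, FZD7 and FZD8, and AXIN2, a target gene of the pathway. They were picked by name with earlier results of these arrays known, because SFRP1 was lower with the miR-1 mimic and FZD4 was higher with the miR-4728-3p mimic. These 2 values are therefore given as a description, without a test. Among 11820 genes tested in the miR-4728-3p experiment there were 8 of the 10 members, and among 11899 genes tested in the miR-1 experiment there were 7.

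Wnt proteins are secreted lipid-modified ligands that bind Frizzled receptors at the cell surface together with the co-receptors LRP5 and LRP6. Binding stops the destruction of β-catenin, which then enters the nucleus and acts with TCF and LEF factors on target genes such as AXIN2, while other Wnt signals run without β-catenin and steer cell polarity and movement. Secreted frizzled-related proteins hold back the ligands, and Dickkopf proteins such as DKK1 block the co-receptors. In the mammary gland Wnt signalling maintains the stem and basal cells, and SFRP1 is often silenced in breast cancer.

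The cells were MCF10A, an immortalized and non-tumorigenic line of human mammary epithelial cells, and all were transfected with a lipid reagent. In the first experiment 6 cultures received the hsa-miR-4728-3p mimic and 6 the control that the labels call ctrl_siRNA, a non-targeting control. In the second, on another version of the Illumina bead array, 4 cultures received the hsa-miR-1-3p mimic and 4 a non-targeting control. The labels' protocol gives 100 nM for oligonucleotides and mimics in general. The methods call the arrays biological replicates, and all come from 1 cell line and from unsorted cells, in which a fall in RNA per cell and a loss of the cells that carry it cannot be told apart.

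The 2 mimics have different seeds, the bases of a miRNA that pair with its targets. They are printed 5′ to 3′ from RefSeq (GRCh38.p14), with the seed (bases 2 to 8) in capitals in the first and last lines and the internal seed that the study proposes for miR-4728-3p (bases 6 to 12) in capitals in the middle line.
hsa-miR-4728-3p, seed: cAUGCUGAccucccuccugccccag
hsa-miR-4728-3p, internal seed: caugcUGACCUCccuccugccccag
hsa-miR-1-3p, seed: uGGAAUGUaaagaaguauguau
The first lies at chr17:39726537-39726561 on the plus strand, within the ERBB2 gene, and is 25 bases long. The second, of 22 bases, is encoded by MIR1-1 at chr20:62554351-62554372 on the plus strand, and by MIR1-2 at chr18:21829015-21829036 on the minus strand with the same mature sequence. FZD4 is on the study's list of genes with a predicted site for the internal seed. The study describes lower expression of targets through such sites, while FZD4 was higher with this mimic. Whether the site in FZD4 acts was not tested.

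All values below are log2 intensities after background correction and quantile normalization within an experiment, and a log2 fold change is the mimic mean minus the control mean. A probe was tested with limma if its average exceeded the middle of all values in its experiment, 6.36 for the miR-4728-3p arrays and 6.17 for the miR-1 arrays. Adjusted p-values are from limma over all tested probes of the experiment. Where a gene had several tested probes, the brightest stood for it. The deposited signals had a median per array of 101 to 135 in the miR-4728-3p experiment and 92 to 121 in the miR-1 experiment. Of 12 listed epithelial markers 8 were named on both arrays, and all 8 passed the filter in both experiments, among them KRT5 and CDH1. Of 7 named markers of blood and endothelial cells, PTPRC, CD3E, VWF and CDH5 lay below it in both and CD14, CD68 and PECAM1 passed it in both. CD14 averaged 10.22 and 9.43 in the controls of the miR-4728-3p and miR-1 experiments. Of 19 interferon response genes all 19 were higher with the miR-4728-3p mimic at an adjusted p under 0.05, beside 3.94% of all tested genes. The log2 of their summed intensity lay between 16.73 and 17.55, against 11.89 to 12.74 in control arrays. With the miR-1 mimic 0 of 16 such genes passed the limma test in either direction, beside 1.24% of all tested genes lower and 1.45% higher. None reached an unadjusted p under 0.05 (0 of 16), and the log2 of the sum was 11.08 to 11.24 against 11.07 to 11.17.

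In cells with the miR-1 mimic the antagonist SFRP1 lay lower and the antagonist DKK1 higher than in the control, and the other 4 antagonists tested, SFRP4, WIF1, KREMEN1 and KREMEN2, did not pass the test. Of these 4, SFRP4, WIF1 and KREMEN2 had group means from 6.10 to 6.47, close to the filter at 6.17, where a change would be hard to see. The third antagonist of the set, DKK3, was not tested in the miR-1 experiment. Of the other members FZD2, a receptor, was lower there by a smaller amount. SFRP1 chose the set and is given without a test. Of the other tested members FZD2 was lower and DKK1 higher at an adjusted p under 0.05, and 4 did not pass. Among all tested genes 1.24% were lower and 1.45% higher. As the members were picked with earlier results known, nothing is read from these counts.

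SFRP1 encodes a secreted protein that carries a Frizzled-like cysteine-rich domain and sequesters Wnt ligands. Its log2 intensity was 10.58, 10.45, 10.40 and 10.34 in the arrays of the miR-1 mimic and 11.13, 11.19, 11.60 and 11.33 in those of the control. Every mimic array lay below every control array, by at least the step from 10.58 to 11.13. The means were 10.44 ± 0.10 (SD, n = 4) and 11.31 ± 0.21 (SD, n = 4), a log2 fold change of -0.87, or 1.83-fold lower.

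DKK1 encodes the Dickkopf protein that binds LRP5 and LRP6 and keeps them from forming a receptor complex with Frizzled. Its brighter probe read 10.37, 10.11, 10.39 and 10.45 with the miR-1 mimic and 9.70, 9.76, 9.36 and 9.31 in the control. The groups did not overlap, and controls 3 and 4 were the lowest of the 8 arrays. The means of 10.33 ± 0.15 (SD, n = 4) and 9.53 ± 0.23 (SD, n = 4) differed by 0.80 on the log2 scale (SE 0.11, limma adjusted p = 0.00174), or 1.74-fold. The call held in all 9 other processing settings, with adjusted p from limma of 0.000399 to 0.0234, and without any single array.

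A second, dimmer DKK1 probe was also higher on average, without passing the test. It read 6.69, 7.29, 7.30 and 7.58 with the miR-1 mimic and 6.93, 7.03, 6.23 and 6.79 in the control. Here mimic array 1 lay within the range of the controls. The log2 fold change of this probe was 0.47 (95% interval 0.08 to 0.86, adjusted p = 0.275 from limma).

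**Figure D1:**
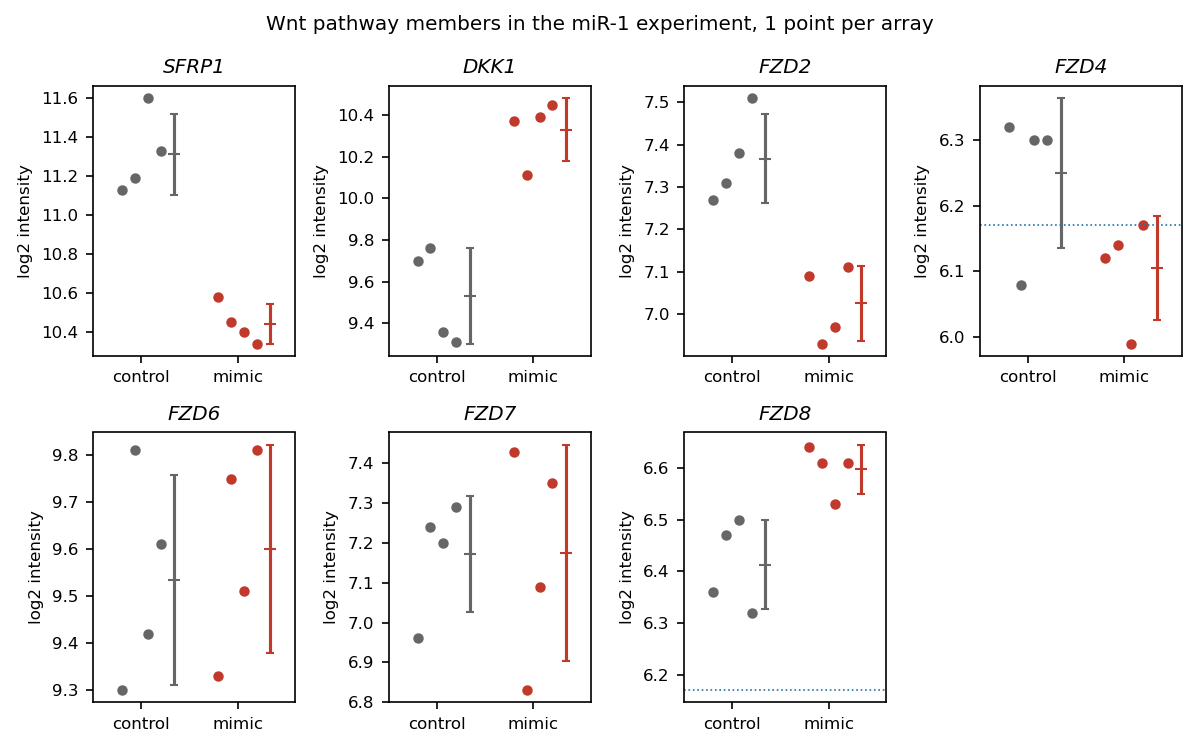
Log2 intensity of the 7 members tested in the miR-1 experiment, with 1 point per array, 4 control arrays in grey and 4 mimic arrays in red, and the mean with its SD at the right of each group; each panel has its own scale, and the dotted line is the filter at 6.17 where it falls near the panel. SFRP1 and FZD2 have all mimic points below all control points, and DKK1 and FZD8 have all of them above.

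Of the 8 tested epithelial markers 3 were higher in the same arrays, beside 1.45% of all tested genes, and 5 did not pass the test. KRT14, a basal keratin, CDH1, the epithelial cadherin, and SFN were higher with the miR-1 mimic, by log2 fold changes of 0.72, 0.49 and 0.44, while the other 5 had values from -0.03 for LAMB3 to 0.13 for KRT5. The log2 of the summed intensity of the 8, in which the brightest weigh most, lay between 13.69 and 13.77 in mimic arrays, against 13.38 to 13.42 in controls. Their part in the changes of SFRP1 and DKK1 was not tested.

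In the miR-4728-3p experiment the same probes of SFRP1 and DKK1 gave differences close to 0. SFRP1 ranged from 11.69 to 12.36 with a median of 12.12 in the 6 mimic arrays, and from 11.59 to 12.42 with a median of 12.16 in the 6 controls. The ranges covered each other almost wholly, and the log2 fold change was -0.02 (95% interval -0.30 to 0.27, adjusted p = 0.980 from limma). DKK1 ranged from 11.05 to 11.43 with a median of 11.30 with the mimic, and from 11.12 to 11.47 with a median of 11.26 in the control. Its log2 fold change was -0.01 (95% interval -0.22 to 0.19, adjusted p = 0.975 from limma), and that of its dimmer probe was -0.06 (95% interval -0.30 to 0.18). A change of DKK1 as large as that with the miR-1 mimic lies outside these intervals. The mimics were tested in separate experiments with their own controls, and the difference between their effects was not tested.

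DKK3, a divergent Dickkopf protein, had signals close to the filter in both experiments. Of its 4 probes, 2 passed the filter in the miR-4728-3p arrays and 0 in the miR-1 arrays. The brightest ranged from 6.43 to 7.23 with the miR-4728-3p mimic (median 6.76) and from 6.43 to 6.76 in the control, with a median of 6.63. Mimic arrays 1, 2 and 5 lay above all controls and the other 3 among or below them, and the log2 fold change of 0.18 (95% interval -0.08 to 0.43) had an adjusted p of 0.551 from limma. The other tested probe had a log2 fold change of 0.24 (95% interval -0.02 to 0.51, adjusted p = 0.374 from limma). Its control mean of 6.34 was below the filter at 6.36, and its mimic mean of 6.58 was above it. The 2 DKK3 probes below the filter in these arrays differed by -0.14 and -0.24, so the 4 probes did not share a direction. In the miR-1 arrays the 4 probes had means between 5.91 and 6.19 in the control and between 5.92 and 6.12 with the mimic.

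WNT5A and AXIN2, the ligand and the target gene of the set, lay below the filter in both experiments and were not tested. WNT5A signals mostly without β-catenin. With the miR-4728-3p mimic its probe ranged from 5.98 to 6.39, against 5.99 to 6.59 in the control, and with the miR-1 mimic from 6.10 to 6.16, against 6.06 to 6.19. AXIN2, a scaffold of the complex that destroys β-catenin and itself induced by β-catenin, ranged from 5.91 to 6.29 against 6.04 to 6.45 in the miR-4728-3p experiment. In the miR-1 experiment it ranged from 5.90 to 6.19 against 5.94 to 6.21. The groups of both genes overlapped in both experiments. The mean of AXIN2 was below the filter, so a further fall would be hard to see on these arrays.

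FZD4, which chose the set, was the member that differed most with the miR-4728-3p mimic, and its difference is given without a test. The other 7 tested members did not pass the limma test in either direction, beside 3.80% of all tested genes lower and 3.94% higher. Of these members 1 was lower at an unadjusted p under 0.05. FZD4 is a receptor for Wnt proteins and for Norrin, a ligand of retinal and vascular development. Its log2 intensity was 7.64, 8.90, 7.12, 7.55, 8.11 and 7.56 in the mimic arrays and 6.52, 6.65, 6.93, 6.72, 6.61 and 6.61 in the controls. All mimic arrays lay above all controls, which held for no other member and for 2.94% of all tested genes. As FZD4 was picked for its rise, nothing is read from this. No member had all mimic arrays below all controls (2.64% of tested genes). The mimic arrays were spread wider, with array 2 the highest and array 3 close to the top of the controls. The means were 7.81 ± 0.62 (SD, n = 6) and 6.67 ± 0.14 (SD, n = 6), a log2 fold change of 1.14, or 2.20-fold.

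The control level of FZD4 was close to the filter at 6.36, and the size of its difference depended on how background was handled. The log2 fold change was 0.91 in the authors' normalized values and 1.47 with a normexp offset of 16. Without mimic array 2 it was 0.92. The interferon response genes rose in the same mimic arrays, as given above, and their part in the FZD4 value was not tested. The tested genes whose pattern over the 12 arrays was most like that of FZD4 were PLCG2, SQOR and GBP4, with Pearson correlations of 0.988, 0.982 and 0.981, the highest among 11819 genes. Such values share the difference between mimic and control arrays. For SFRP1 over the 8 arrays of the miR-1 experiment, the most alike of 11898 genes were ANKIB1, NELFCD and GLCE, with correlations of 0.984, 0.982 and 0.981, which share that difference too.

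**Figure D2:**
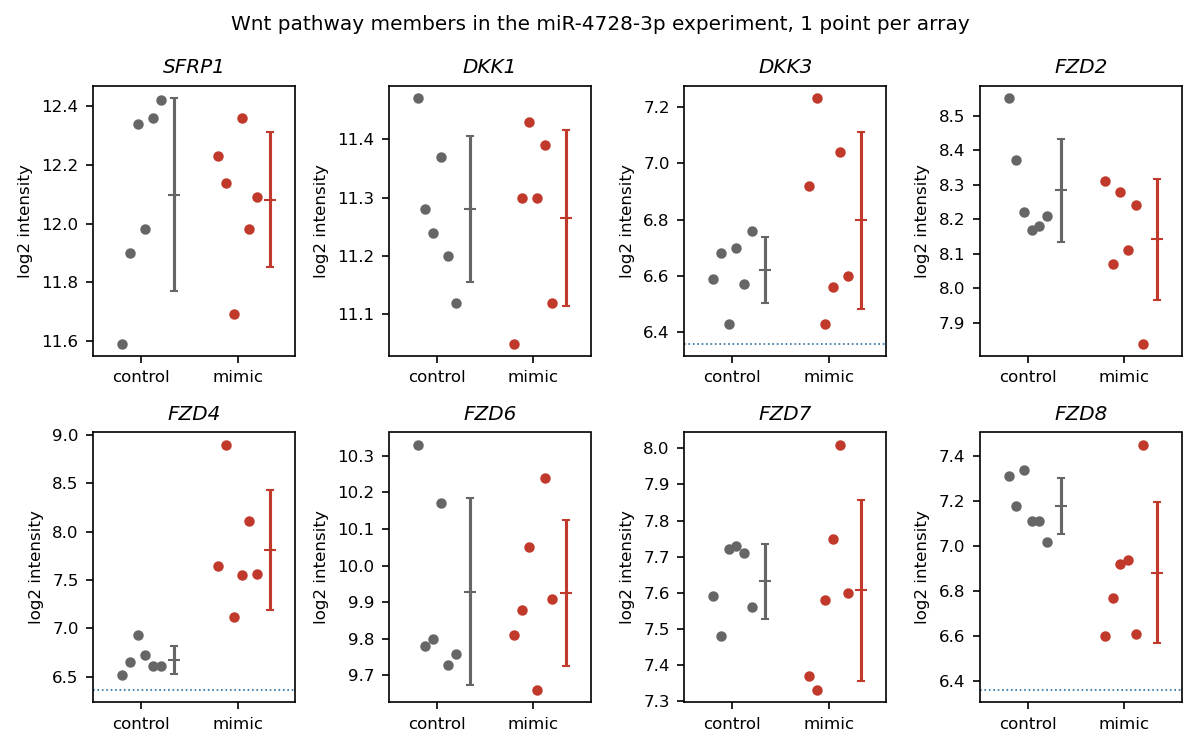
Log2 intensity of the 8 members tested in the miR-4728-3p experiment, with 1 point per array, 6 control arrays in grey and 6 mimic arrays in red, and the mean with its SD at the right of each group; each panel has its own scale, and the dotted line is the filter at 6.36 where it falls near the panel. The FZD4 panel is the one in which all mimic points, from 7.12 to 8.90, lie above all control points.

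With the miR-1 mimic FZD4 was close to the filter. It read 6.12, 6.14, 5.99 and 6.17 with the mimic and 6.32, 6.08, 6.30 and 6.30 in the control. Control array 2 lay among the mimic arrays, and the log2 fold change of -0.15 (95% interval -0.32 to 0.03) did not pass the test (adjusted p = 0.515 from limma).

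FZD2, a Frizzled receptor that also carries WNT5A signals, was lower with the miR-1 mimic by a small margin. It read 7.09, 6.93, 6.97 and 7.11 with the mimic and 7.27, 7.31, 7.38 and 7.51 in the control. The groups did not overlap, as was so for 5.73% of all tested genes with the mimic below the control. Means of 7.02 ± 0.09 (SD, n = 4) and 7.36 ± 0.11 (SD, n = 4) gave a log2 fold change of -0.34 (SE 0.08, limma adjusted p = 0.0465). The call was lost in each of the 8 fits that left out 1 array (adjusted p from 0.0534 to 0.159 from limma), with an offset of 16 and with a replicate block, while the log2 fold change stayed between -0.44 and -0.27. In the miR-4728-3p experiment FZD2 lay between 7.84 and 8.31 (median 8.17) in mimic arrays and between 8.17 and 8.55 (median 8.22) in controls. The ranges overlapped there, and its log2 fold change was -0.14 (95% interval -0.36 to 0.07, adjusted p = 0.573 from limma).

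FZD8, another Wnt receptor, had small differences of opposite sign in the 2 experiments, neither of which passed the test. In the miR-1 experiment it read 6.64, 6.61, 6.53 and 6.61 with the mimic, against 6.36, 6.47, 6.50 and 6.32 in the control. The mimic arrays lay just above the controls, as did those of 5.02% of all tested genes, and the log2 fold change was 0.19 (95% interval 0.03 to 0.35, adjusted p = 0.305 from limma). With the miR-4728-3p mimic it read 6.60, 6.77, 6.92, 6.94, 6.61 and 7.45, against 7.31, 7.18, 7.34, 7.11, 7.11 and 7.02 in the control. Mimic array 6 was above all controls and the other 5 below all of them, which gave a log2 fold change of -0.30 (95% interval -0.55 to -0.04, adjusted p = 0.209 from limma). Without mimic array 6 the log2 fold change was -0.41 and passed the test (adjusted p = 0.0191 from limma, range 0.0191 to 0.402 over the arrays left out).

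FZD6 and FZD7 showed no difference larger than the spread between arrays in either experiment. FZD6, known for planar cell polarity, ranged from 9.66 to 10.24 in miR-4728-3p mimic arrays and from 9.73 to 10.33 in their controls, with medians of 9.90 and 9.79. In the miR-1 experiment its mimic arrays read 9.33, 9.75, 9.51 and 9.81, against 9.30, 9.81, 9.42 and 9.61. Its log2 fold changes were 0.00 (95% interval -0.25 to 0.25) and 0.07 (95% interval -0.20 to 0.33). FZD7, a receptor of basal and stem cells of the mammary gland, ranged from 7.33 to 8.01 and from 7.48 to 7.73 in the miR-4728-3p mimic and control arrays. In the miR-1 experiment the mimic arrays read 7.43, 6.83, 7.09 and 7.35, against 6.96, 7.24, 7.20 and 7.29. The mimic arrays were the more widely spread in both experiments, on both sides of the controls, and the log2 fold changes were -0.02 (95% interval -0.25 to 0.21) and 0.00 (95% interval -0.26 to 0.26). A second FZD7 probe lay below the filter in both experiments.

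**Figure D3:**
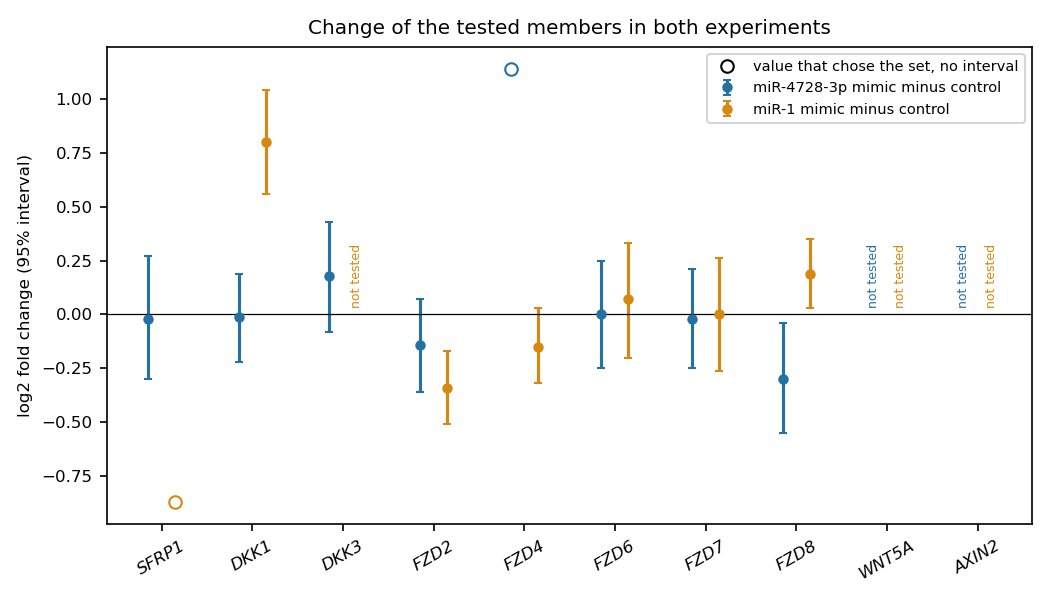
Log2 fold change (mimic minus control) of the 10 members, with the miR-4728-3p mimic in blue and the miR-1 mimic in orange; bars are 95% intervals from limma, open circles are the 2 values that chose the set, and genes below the filter are marked as not tested. DKK1 and FZD2 with the miR-1 mimic and FZD8 with both have intervals that leave out 0, and FZD8 did not pass the adjusted test.

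Among the other genes of the pathway few passed the test, as among all tested genes. Of 97 further Wnt genes on lists by role, 60 were tested in the miR-4728-3p experiment, of which 3 were lower, 2 were higher and 55 did not pass, against 3.80% lower and 3.94% higher among all tested genes. Without adjustment 13 were lower and 4 higher at p under 0.05, in an experiment where 56.1% of all tested genes had a log2 fold change below 0. The share of all tested genes at an unadjusted p under 0.05 was not worked out. Nothing is therefore read from these unadjusted counts or from those given elsewhere. The log2 of their summed intensity was 14.99 to 15.13 in mimic arrays and 15.15 to 15.25 in controls, so the groups did not overlap. Bright genes such as CD44 weigh most in this sum, so it does not show a fall across the list. The median of their log2 fold changes was -0.04, against -0.02 for all genes. In the miR-1 experiment 51 were tested, and limma called 0 lower and 0 higher, beside 1.24% and 1.45% of all tested genes. Of the 51, 3 were lower and 1 was higher when p was left unadjusted at 0.05. The median of the 51 was -0.02, against -0.01 for all genes.

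Apart from FZD4, which chose the set, FZD5 was the 1 higher gene of the 8 other Frizzled receptors tested with the miR-4728-3p mimic, against 3.94% of all tested genes. FZD5, a Wnt receptor, averaged 7.02 ± 0.21 (SD, n = 6) in mimic and 6.54 ± 0.19 (SD, n = 6) in control arrays, a log2 fold change of 0.48 (SE 0.11, limma adjusted p = 0.00777), with groups that overlapped slightly. Like FZD4, it was close to the filter in the control. The 9 Frizzled genes had log2 fold changes from -0.30 to 1.14 with a median of 0.00. With the miR-1 mimic FZD2 was the 1 lower gene of 9 tested, beside 1.24% of all tested genes, and its call was lost in each fit that left out 1 array. The range of the 9 was -0.34 to 0.19 with a median of 0.02.

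Downstream of the receptors, TLE4, a Groucho-type corepressor that binds TCF factors, had the largest change of the further genes. Its mean was 8.65 ± 0.32 (SD, n = 6) in miR-4728-3p mimic arrays and 7.53 ± 0.24 (SD, n = 6) in their controls, with no overlap and a log2 fold change of 1.12 (SE 0.14, limma adjusted p = 2.87e-06). It was the 1 gene of 9 tested nuclear factors that passed, beside 3.94% of all tested genes higher, and the median of the 9 was -0.14. Lower were DAAM1, a formin that links Dishevelled to the actin skeleton, by a log2 fold change of -0.52 (adjusted p = 0.00249 from limma), and CD44, a surface glycoprotein and β-catenin target, by -0.47 (adjusted p = 0.00274 from limma). GSK3B, the kinase that marks β-catenin for destruction, had -0.34 (adjusted p = 0.0432 from limma) with the miR-4728-3p mimic, and its arrays overlapped. This call was lost with an offset of 16, without the filter, with a replicate block and without most single arrays, while those of TLE4, DAAM1 and CD44 held in all of these. With the miR-1 mimic GSK3B was at 0.31 (adjusted p = 0.113 from limma), with no overlap of the arrays, and the log2 fold changes of TLE4, DAAM1 and CD44 were 0.10, 0.08 and -0.19, none of which passed.

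None of the other tested β-catenin target genes and none of the tested ligands passed the test. Of 9 tested target genes with the miR-4728-3p mimic, CD44 was lower and 8 did not pass, beside 3.80% of all tested genes lower. Among the 8 were MYC with a log2 fold change of -0.05 (95% interval -0.26 to 0.16) and CCND1 with 0.17 (95% interval -0.04 to 0.38). LEF1, also among the 8, had -0.34 (95% interval -0.58 to -0.10, adjusted p = 0.0947 from limma). When p was left unadjusted at 0.05, 2 of the 9 were lower and 0 higher. Of 7 tested with the miR-1 mimic none passed the limma test, beside 1.24% of all tested genes lower and 1.45% higher. Among these 7, 1 was lower and 0 were higher when p was left unadjusted at 0.05. MYC, CCND1 and LEF1 had -0.02, 0.24 and -0.12 there, LEF1 by another probe. CTNNB1, which encodes β-catenin, had 0.04 (95% interval -0.20 to 0.28) and -0.09 (95% interval -0.32 to 0.14). Of 19 Wnt ligands 8 were tested in the miR-4728-3p experiment and 3 in the miR-1 experiment, and none passed the limma test. Among all tested genes 3.80% were lower and 3.94% higher in the first experiment, and 1.24% and 1.45% in the second. When p was left unadjusted at 0.05, 0 and 1 of the tested ligands were lower and 0 higher. The tested ligands had means close to the filters of 6.36 and 6.17 and the rest lay below them, so a change would be hard to see.

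**Figure D4:**
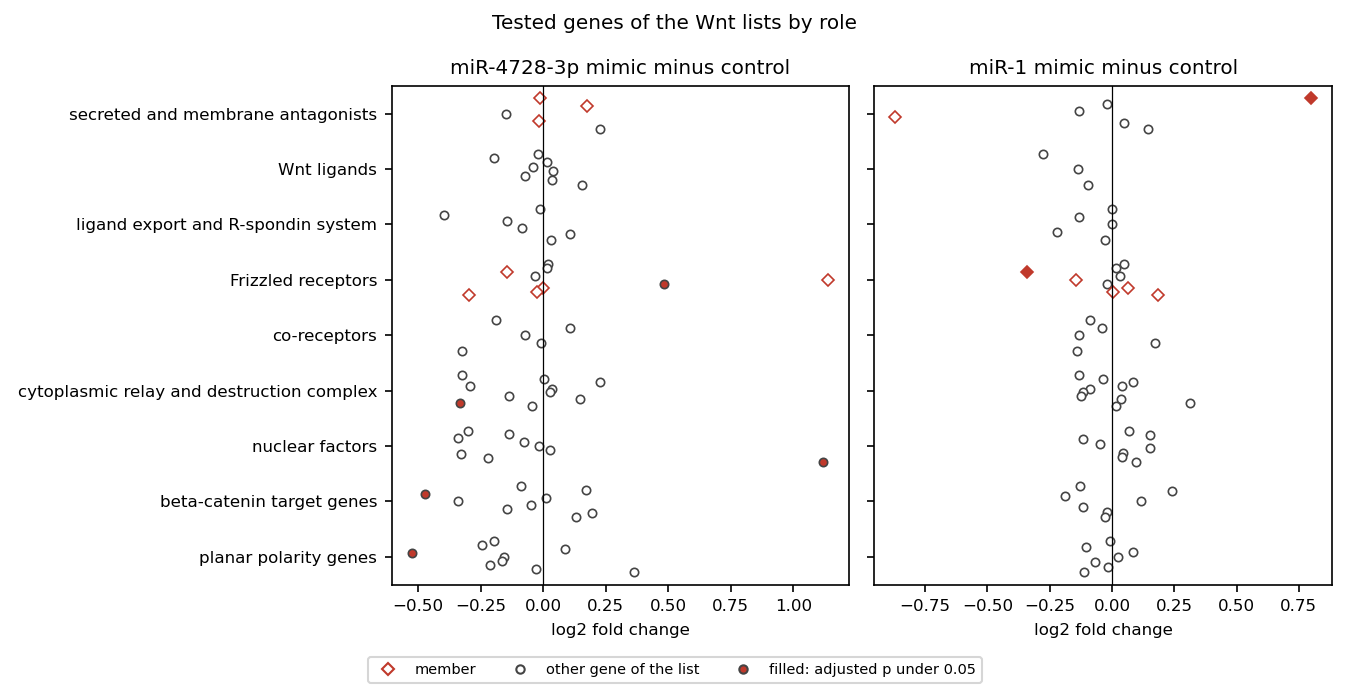
Log2 fold change of each tested gene of the Wnt lists, by role, with the miR-4728-3p mimic at the left and the miR-1 mimic at the right; diamonds are members, circles are other genes, and filled symbols have an adjusted p under 0.05, which is not shown for FZD4 at the left and SFRP1 at the right because they chose the set. FZD4 at 1.14 and TLE4 at 1.12 stand farthest to the right in the left panel, and SFRP1 at -0.87 and DKK1 at 0.80 lie farthest out in the right panel.

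The ranges over the processing settings follow for the members with the largest differences, which all kept their sign. SFRP1 and FZD4 chose the set by these values, so their kept sign is a description and no support. SFRP1 with the miR-1 mimic lay between -0.89 and -0.84 in the 9 other settings and between -0.93 and -0.78 without any 1 array. DKK1 lay between 0.75 and 0.83 and between 0.72 and 0.87. FZD4 with the miR-4728-3p mimic ranged more widely, from 0.91 to 1.47 and from 0.92 to 1.28.

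**Figure D5:**
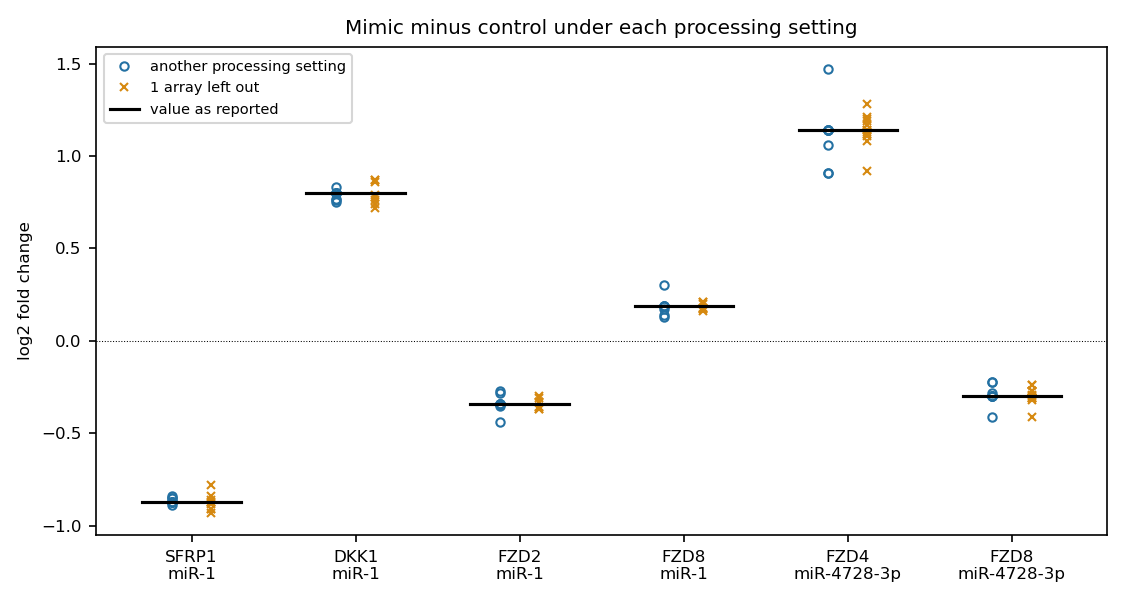
Log2 fold change of 5 members, FZD8 in both experiments, as reported (black line), under 9 other processing settings (blue circles) and with 1 array left out (orange crosses). SFRP1, DKK1, FZD2 and FZD4 stay on one side of 0 throughout, and FZD4 has the widest range, from 0.91 to 1.47.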

How the data were processed

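RNA of MCF10A cells was hybridized to Illumina bead arrays. The authors deposited probe intensities without normalization, and a second table of intensities normalized on the BASE server by a method not given in the sources used here. How the scans were summarized is also not given. From the unnormalized table, background was corrected by normexp with an offset of 50, the arrays of an experiment were made alike by quantile normalization, and log2 was taken (R 4.3.3). Detection p-values were not among the columns, so the filter on dim probes kept those whose mean exceeded the median. The kept probes entered lmFit and eBayes (limma 3.58.1), the experiments apart, with Benjamini-Hochberg adjustment over the tested probes. Probes were named through the platform annotation, updated by gene identifier with the GRCh38.p14 gene table. The fit was tested on simulated data. Alternatives were the background correction, the filter, the authors' values, a replicate block, array weights, another variance model, another probe and leaving out each array.

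The members and lists were chosen with earlier results of these data known. Named genes are the 10 members, up to 4 called genes of each Wnt list with the smallest p, and the 3 genes most correlated with FZD4 or SFRP1. Other Wnt genes, such as MYC, CCND1, LEF1, CTNNB1 and the antagonists that did not pass, and the markers of cell types were named after their values were seen. Some genes of the lists are not reported here. Of the fibroblast markers, 1 of 6 passed the filter in each experiment and was not called. Of 3 tested blood and endothelial markers CD68 was higher with the miR-4728-3p mimic (log2 fold change 1.31), beside 3.94% of all tested genes, and none passed with miR-1. Precision is set by the number of arrays. Figures were drawn with matplotlib 3.10.9.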

Additional observations from a re-analysis of the deposited data

Results flagged for a closer look

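Of 60 groups of arrays, 1 for each member probe, experiment and condition, 2 held an array far from the others, and chance alone flags about 1 group in 20. In the miR-4728-3p experiment the DKK3 probe ILMN_1815673 was at 5.74 in control array 3, while the other 5 controls lay between 6.36 and 6.62. In the miR-1 experiment FZD4 was at 6.08 in control array 2, while the other 3 controls lay between 6.30 and 6.32. Both probes were close to the filter.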

How the results depend on the processing

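The count of lower members in the miR-1 experiment, SFRP1 included, fell from 2 to 1 with a normexp offset of 16 and with the replicate block, which ended the call of FZD2. The counts of members here include SFRP1 and FZD4, which chose the set, so nothing is read from them. Of the further Wnt genes, 5 rather than 3 were lower with the miR-4728-3p mimic without background correction, in the authors' normalized values and with a filter at the 75th percentile, and 6 with trend and robust eBayes. With that filter 1 rather than 2 was higher. Without any single array, the miR-4728-3p experiment had 0 to 1 members lower, 1 to 1 higher, 2 to 5 further genes lower and 2 to 3 higher, and the miR-1 experiment had 1 to 1 members lower, 1 to 1 higher, 0 to 1 further genes lower and 0 to 0 higher. The extremes were FZD8 without mimic array 6, 5 further genes without control array 5 or 6, and WNT7A in the miR-1 experiment without control array 2. Over all genes with the miR-1 mimic, 147 lower and 173 higher became 83 and 99 with an offset of 16, 37 and 67 with the replicate block, and 75 to 119 and 91 to 153 without any single array, lowest without control array 4.

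Signs changed where the value was near 0. FZD6 with the miR-4728-3p mimic became 0.01 and FZD7 with the miR-1 mimic -0.05 with array weights, and FZD7 was 0.00 with an offset of 16, just below 0. Without single arrays the miR-4728-3p values ranged from -0.12 to 0.06 for SFRP1, -0.05 to 0.03 for DKK1, -0.06 to 0.08 for FZD6 and -0.10 to 0.03 for FZD7, and the miR-1 values from -0.01 to 0.16 for FZD6 and -0.08 to 0.12 for FZD7. The cause was not tested. Same-numbered mimic and control arrays did not deviate together (correlations -0.14 to 0.07 and -0.23 to -0.03), and whether they shared a batch cannot be told from these values. The block ended the call of FZD2 (adjusted p = 0.128 from limma) and of no other member. Probes near the filter, DKK3 and FZD4 among them, had signals near the median of the arrays, where background limits what can be seen.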
